A study of Mus musculus with 64 samples.

Results

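Slow-twitch muscle fibers use their own versions of many contractile and calcium-handling proteins. The genes followed here in mouse gastrocnemius were Tnnt1, Tnni1, Tnnc1, Myl2, Myl3, Atp2a2, Casq2, Myoz2, and Tpm3, which encode such proteins. They were chosen by name for this role, with earlier results of these data known, and they are 9 of the 55401 genes in the count table. All 9 were among the 15241 genes with enough reads to be tested. The libraries came from mice with loxP-flanked Hif1a alleles. The HIF1α KO mice carried, besides these alleles, a Cre recombinase under the human α-skeletal actin (HSA) promoter, which is active in skeletal muscle fibers, and their fl/fl littermates carried the same Hif1a alleles with no Cre. All mice were adults, were fed chow freely, and were of both sexes. They had been bred on a C57BL/6JBomTac background for a number of generations that varied. At ZT3, in the light and rest phase, or at ZT15, in the dark and active phase, they ran on a treadmill for 60 min at up to 16 m/min on an incline of 5%, or were given a sham treatment (sedentary), and muscle was taken 3 h later.

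Each of the 8 combinations of genotype, time of day, and treatment held 4 females and 4 males, except exercised HIF1α KO mice at ZT3, with 4 females and 3 males. The remaining library of that group (mouse 44) held 382 counts in all, with 0 for each of the 9 genes, and was left out as it was by the authors. The other 63 libraries held between 2359780 and 40377963 counts (median 16236352), and 3 of them held fewer than 5000000. Values are CPM, the read counts of a gene scaled to the TMM-adjusted library total. In HIF1α KO mice the mean of Hif1a itself was 36.4 ± 4.8 CPM (SD, n = 31), and the fl/fl mice had 36.4 ± 6.31 CPM (SD, n = 32). Counts over the whole gene cannot check the label, because the floxed segment is a single exon and the muscle also holds cells without HSA-driven Cre. The study itself reported fewer Hif1a transcripts in quadriceps of HIF1α KO mice. The skeletal muscle markers Acta1, Ckm, Myh4, Ttn, and Des together took a median of 268426 CPM in females and 268457 CPM in males. With edgeR 2 of these 5 markers were called between the sexes, both higher in males, against 25.1% of all genes tested in either direction. Of the 2, Ckm lost the call without TMM scaling.

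Muscle contracts when calcium binds troponin, which moves tropomyosin on the thin filament so that myosin heads can pull on actin. Tnnt1, Tnni1, and Tnnc1 encode the tropomyosin-binding, inhibitory, and calcium-binding troponin subunits of slow fibers, and Tnnc1 is shared with the heart. Tpm3 encodes slow tropomyosin along with non-muscle isoforms. Myl2 and Myl3 encode the regulatory and essential light chains of slow and ventricular myosin. Atp2a2 encodes SERCA2, the pump that returns calcium to the sarcoplasmic reticulum in slow fibers and in the heart, and also a widely expressed isoform. Casq2 encodes calsequestrin 2, which holds calcium within that store. Myoz2 encodes a Z-disc protein that binds calcineurin, the calcium-dependent phosphatase known to promote the slow fiber program. Each has a partner in fast fibers, in the same order Tnnt3, Tnni2, Tnnc2, Tpm1, Mylpf, Myl1, Atp2a1, Casq1, and Myoz1. Mouse gastrocnemius is mainly a fast muscle with a small slow part. The study extracted RNA from a weighed amount of this muscle and does not state which part was taken. With bulk RNA, fewer slow fibers, less RNA per slow fiber, and a different sampled part of the muscle cannot be told apart.

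Promoter sequences of the genes with a single RefSeq start are printed because the levels of the 9 genes were correlated across mice. Of the 9 genes, 8 matched the RefSeq promoter table of GRCm38.p6, and Atp2a2 had no entry. Each window runs from 250 bases before to 50 bases after the start, 5′ to 3′ on the gene's strand. Capitals mark matches to MEF2 sites, CArG boxes, MCAT elements (CATTCC), E-boxes (CANNTG), TATA boxes (TATAAA), and the HIF core GCGTG. Both strands were searched, so a match on the opposite strand is shown as its reverse complement.
Tnnt1 (chr7:4515926-4516225, minus strand): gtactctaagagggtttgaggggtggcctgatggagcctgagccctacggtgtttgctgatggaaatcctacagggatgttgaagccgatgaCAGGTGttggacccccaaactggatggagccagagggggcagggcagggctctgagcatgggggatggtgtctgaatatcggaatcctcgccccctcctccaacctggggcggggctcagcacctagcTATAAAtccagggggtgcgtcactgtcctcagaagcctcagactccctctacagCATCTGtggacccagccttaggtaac
Tnnc1 (chr14:31208062-31208361, plus strand): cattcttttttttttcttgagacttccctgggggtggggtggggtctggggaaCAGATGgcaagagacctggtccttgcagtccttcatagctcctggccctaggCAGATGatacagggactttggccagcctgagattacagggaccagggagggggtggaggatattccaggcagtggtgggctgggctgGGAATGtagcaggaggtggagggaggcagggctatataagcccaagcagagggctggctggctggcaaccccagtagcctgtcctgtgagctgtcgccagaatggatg
Myl3 (chr9:110763428-110763727, plus strand): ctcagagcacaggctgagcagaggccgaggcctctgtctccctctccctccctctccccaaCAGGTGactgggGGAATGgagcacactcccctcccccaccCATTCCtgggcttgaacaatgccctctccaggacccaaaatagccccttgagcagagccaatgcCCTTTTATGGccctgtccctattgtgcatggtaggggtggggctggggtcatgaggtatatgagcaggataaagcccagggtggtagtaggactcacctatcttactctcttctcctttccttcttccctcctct
Casq2 (chr3:102086165-102086464, plus strand): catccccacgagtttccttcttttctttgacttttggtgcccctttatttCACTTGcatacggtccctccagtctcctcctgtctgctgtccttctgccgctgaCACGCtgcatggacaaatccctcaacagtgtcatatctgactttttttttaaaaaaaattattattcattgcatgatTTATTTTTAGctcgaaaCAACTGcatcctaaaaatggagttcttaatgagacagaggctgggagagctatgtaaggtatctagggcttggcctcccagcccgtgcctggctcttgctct
Myoz2 (chr3:123034938-123035237, minus strand): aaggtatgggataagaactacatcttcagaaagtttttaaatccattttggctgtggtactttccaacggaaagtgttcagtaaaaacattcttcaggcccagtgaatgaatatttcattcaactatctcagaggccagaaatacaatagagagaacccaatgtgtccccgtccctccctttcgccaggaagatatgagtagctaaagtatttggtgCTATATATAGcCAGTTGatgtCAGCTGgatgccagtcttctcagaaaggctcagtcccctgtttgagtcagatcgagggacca

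MEF2, a partner of myogenic factors, had its motif in the windows of Casq2 (bases -69 to -60 from the start) and Myoz2 (-33 to -24), against 3.19% of all 32851 promoters. The CArG box, bound by serum response factor, occurred in the Myl3 window (-85 to -76) and in 1.63% of all promoters. The MCAT element, bound by TEAD factors, occurred in the Tnnc1 window (-58 to -53) and at 2 places in that of Myl3 (-177 to -172 and -149 to -144), and in 14.7% of all promoters. A TATA box lay in the Tnnt1 window (-30 to -25), on the opposite strand in 1 of the 2 windows of Myl2 (-216 to -211), and in 13.6% of all. Both Myl2 windows (chr5:122092474-122092773 and chr5:122092939-122093238) lie upstream of the annotated span of Myl2 (chr5:122100951-122113472), so they may not be the promoter of the counted gene. The E-box, bound by MyoD and its relatives, occurred in every member window and in 72.3% of all. The HIF core GCGTG occurred in the Casq2 window (-146 to -142) and in 32.4% of all promoters, and ACGTG, with 19.6% of all, occurred in no member window. The clock E-box CACGTG, which contains ACGTG and is itself an E-box, had 7.15% of all promoters and no member window. The element AAGGTCA of estrogen-related receptors occurred in 4.72% of all and in 1 of the 2 windows of Tpm3. These matches describe letters in short windows and were not tested for binding.

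The 9 genes were expressed in every library used, at levels far below their fast partners. Atp2a2 had the highest median, 179 CPM, with a range of 81.6 to 570 CPM over the 63 libraries. Casq2 had the lowest, 29.4 CPM, with a range of 12.0 to 67.5 CPM. Levels were also divided by the kilobases of all annotated exons of a gene, whether or not muscle uses them, so the order depends on the annotation. Myl2 led with a median of 77.8 CPM per kb, followed by Tnnc1 (59.3), Myl3 (54.9), Tnnt1 (50.3), Myoz2 (30.9), Atp2a2 (29.4), Tpm3 (19), Tnni1 (12.2), and Casq2 (10.8). Tnnc1 (1041 exon bases) and Tnni1 (3600) lay closer in CPM, with medians of 61.7 and 43.9 CPM. The ranges of neighbours in this order overlapped throughout. The fast partners had medians from 667 CPM per kb (Myoz1) to 10257 CPM per kb (Tnnt3), and no fast partner overlapped with any of the 9.

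The position of each gene and what shares its exons bear on these counts. On GRCm38 (mm10) with the GENCODE M21 annotation, Casq2 spans chr3:102086415-102146514 and Tnnt1 spans chr7:4504570-4516382 on the minus strand. Exons of Myl2 overlap Ccdc63 on the opposite strand over 60 bases, those of Myl3 overlap Pth1r over 95 bases, and those of Atp2a2 overlap Gm43361 over 83 bases. The library kit kept strand, but the strand setting of the counting is not given in the sources used here, so reads in these bases are uncertain. Counts of Tpm3 are also uncertain, because Tpm3-rs7 and Tpm3-rs2 are near-copies that can share its reads.

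**Figure D1:**
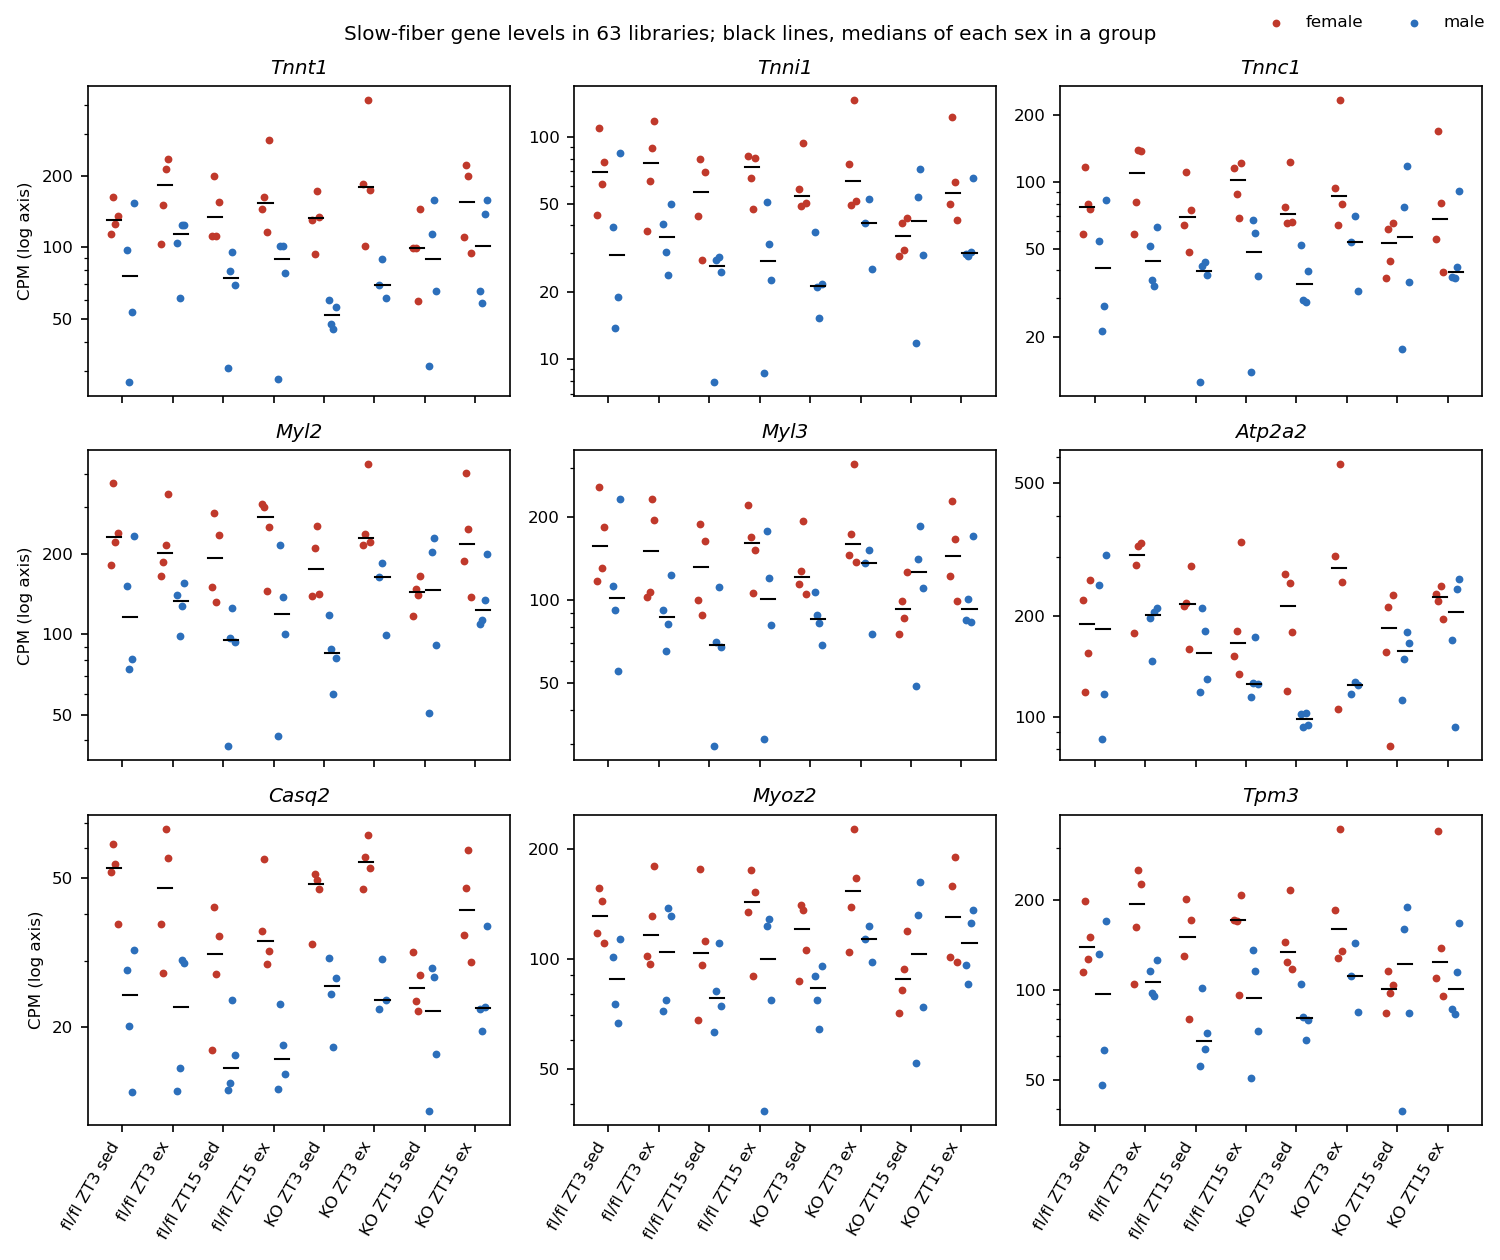
CPM (log axis) of each of the 9 slow-fiber genes in the 63 libraries, by group, with females in red, males in blue, and a black line at the median of each sex in a group. The mean log2 CPM of females lay above that of males in 69 of 72 combinations of gene and group, and the 8 groups overlapped for all 9 genes.

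Sex was the labelled factor for which all 9 genes passed the test, and all 9 were lower in males. Both sexes were present in each group and sex was a term of the model, so males and females could be compared across the 63 libraries. Tnnt1 was at 59.3 (lowest), 140 (median), and 418 CPM (highest) in the 32 females and at 27, 69.3, and 158 CPM in the 31 males. The female median was 2.02 times the male median, and 3 of the 31 males lay above the female median. The log2 fold change from females to males was -0.91 (SE 0.16, edgeR adjusted p = 1.69e-05). The threshold was an adjusted p under 0.1, and the 9 of 9 lower genes stand against 25.1% of all genes tested that passed in either direction and 11.8% that passed and were lower in males.

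The other troponin genes fell by about as much. Tnni1 was at 27.9, 59.7, and 147 CPM in females (lowest, median, and highest) and at 7.89, 29.6, and 84.7 CPM in males, and its log2 fold change was -0.95 (SE 0.18, edgeR adjusted p = 5.25e-05). Tnnc1 was at 36.9, 76.5, and 234 CPM in females and at 12.6, 39.8, and 118 CPM in males, with a log2 fold change of -0.88 (SE 0.18, edgeR adjusted p = 0.00011). In both genes the sexes overlapped, with 3 males above the female median for Tnni1 and 4 for Tnnc1. Tpm3 was at 79.9, 137, and 348 CPM in females and at 39.4, 95.8, and 190 CPM in males, and its log2 fold change was -0.64 (SE 0.14, edgeR adjusted p = 0.000585). For Tpm3 5 males lay above the female median.

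Among the thick-filament and Z-disc genes, Myl2 was at 117, 217, and 434 CPM in females and at 38, 113, and 234 CPM in males. Its log2 fold change was -0.84 (SE 0.15, edgeR adjusted p = 1.02e-05). All 32 females lay above the male median and 2 males above the female median. Myl3 was at 75.2, 134, and 310 CPM in females and at 29.5, 91.7, and 232 CPM in males (log2 fold change -0.55, SE 0.15, edgeR adjusted p = 0.00502). Myoz2 had the smallest difference, with 67.8, 118, and 227 CPM in females and 38.4, 95.8, and 162 CPM in males (log2 fold change -0.38, SE 0.11, edgeR adjusted p = 0.0083). The sexes overlapped in both, with 7 males above the female median for Myl3 and 9 for Myoz2.

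The calcium-handling genes were lower in males as well. Casq2 was at 17.4, 39.8, and 67.5 CPM in females and at 12.0, 22.4, and 37.3 CPM in males. Its log2 fold change was -0.90 with the smallest error of the 9 (SE 0.10, edgeR adjusted p = 4.15e-10). No male reached the female median, although the ranges overlapped. Atp2a2 was at 81.6, 221, and 570 CPM in females and at 86.2, 130, and 305 CPM in males, and its log2 fold change was -0.53 (SE 0.13, edgeR adjusted p = 0.00229). The lowest Atp2a2 value of all was in a female, and 4 males lay above the female median.

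The sex difference held within parts of the libraries, a comparison chosen after seeing the data. Mouse numbers run from 1 to 64, and in each of the 4 blocks of 16 successive numbers all 9 genes had a lower mean log2 CPM in males (36 of 36 differences, from -1.35 to -0.36). Within the 8 groups, 69 of 72 differences were negative. The 3 positive ones were in sedentary HIF1α KO mice at ZT15, with 0.20 for Myl3, 0.08 for Myoz2, and 0.01 for Tpm3 on the log2 scale. In that group Casq2 differed by -0.37, against -1.17 in sedentary fl/fl mice at ZT3, where it differed most. The 9 genes were measured in the same mice and were correlated, so the 36 and the 72 differences are not independent.

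**Figure D2:**
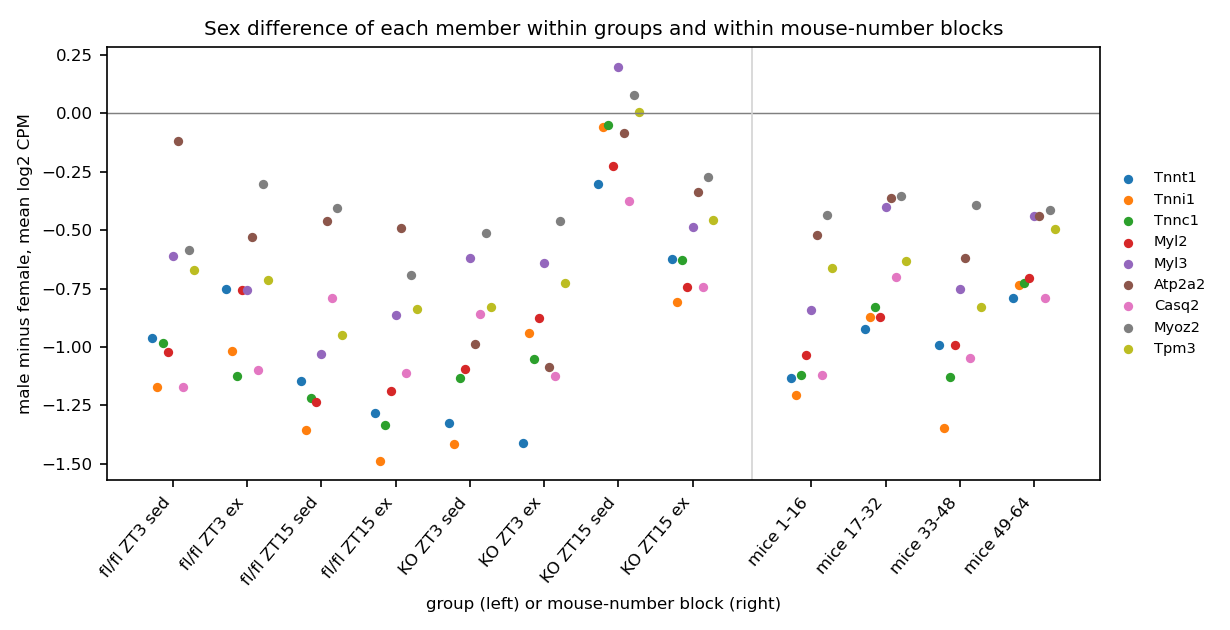
Difference of the mean log2 CPM of males minus females (vertical axis) for each of the 9 genes (colors), within each of the 8 groups (left) and each of the 4 blocks of 16 mouse numbers (right). All points for blocks lie below 0, and the 3 points above 0 belong to sedentary HIF1α KO mice at ZT15, the highest being Myl3 at 0.20.

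In one model with a sex difference for each of the 8 groups, also chosen after seeing the data, the count of genes lower in males was 8 of 9 in fl/fl mice and 6 of 9 in HIF1α KO mice, where 16.2% and 14.7% of all genes passed in either direction. It was 9 at ZT3 (11.5% of all genes) and 6 at ZT15 (15.2%), and 6 in sedentary (12.9%) and 9 in exercised mice (11.7%). In no condition was any of the 9 higher in males. These unequal counts did not amount to a tested difference. The sex effect differed between genotypes for 0 of the 9 genes (0.0394% of all genes passed), between times for 0 (0% of all genes), and between treatments for 0 (0% of all genes). In these 3 edgeR tests of the difference, none of the 9 genes had an unadjusted p under 0.05, and over all genes 1600, 547, and 405 did. DESeq2 called 9, 6, and 0 genes, none of them among the 9. The differences themselves ranged from -0.31 to 0.36 between genotypes, 0.17 to 0.38 between times, and -0.34 to -0.08 between treatments on the log2 scale.

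The fast partners did not share this direction. Of the 9 partners, 5 were higher in males by edgeR, 0 were lower, and 4 did not pass. Over all genes tested, 25.1% passed in either direction. Myl1, the fast essential light chain, had the largest log2 fold change (0.34, SE 0.06, adjusted p = 5.71e-06), followed by Myoz1 (0.31), Tnni2 (0.25), Tnnt3 (0.18), and Tnnc2 (0.14). With total counts and no TMM scaling the direction of all 5 stayed, but Tnnc2 no longer passed (adjusted p = 0.258). Atp2a1 (-0.04), Mylpf (-0.02), Casq1 (0.07), and Tpm1 (0.14) had adjusted p from 0.113 to 0.805. Tnnc2, Atp2a1, and Casq1 share exon bases with genes on the opposite strand.

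The share of the slow form in each pair was higher in females. It was computed as CPM per kilobase of the slow gene over the sum of both, and was described without a test. The lengths were again those of all annotated exons, so the size of a share depends on the annotation. Over all libraries the median share was lowest for Tnni1 (0.241% of Tnni1 plus Tnni2) and highest for Myoz2 (4.61% of Myoz2 plus Myoz1). In females and males the medians were 0.682% and 0.341% for Tnnt1, 0.365% and 0.167% for Tnni1, and 0.969% and 0.476% for Tnnc1. For the remaining pairs the female median was also the higher one in each. It was 2.01% against 1.10% for Myl2 and 2.56% against 1.33% for Myl3. It was 1.45% against 1.08% for Atp2a2, 1.5% against 0.783% for Casq2, 5.35% against 3.63% for Myoz2, and 0.951% against 0.629% for Tpm3. Even in the female with the highest share, Myoz2 took 12.1% and Tnni1 took 0.997% of its pair.

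**Figure D3:**
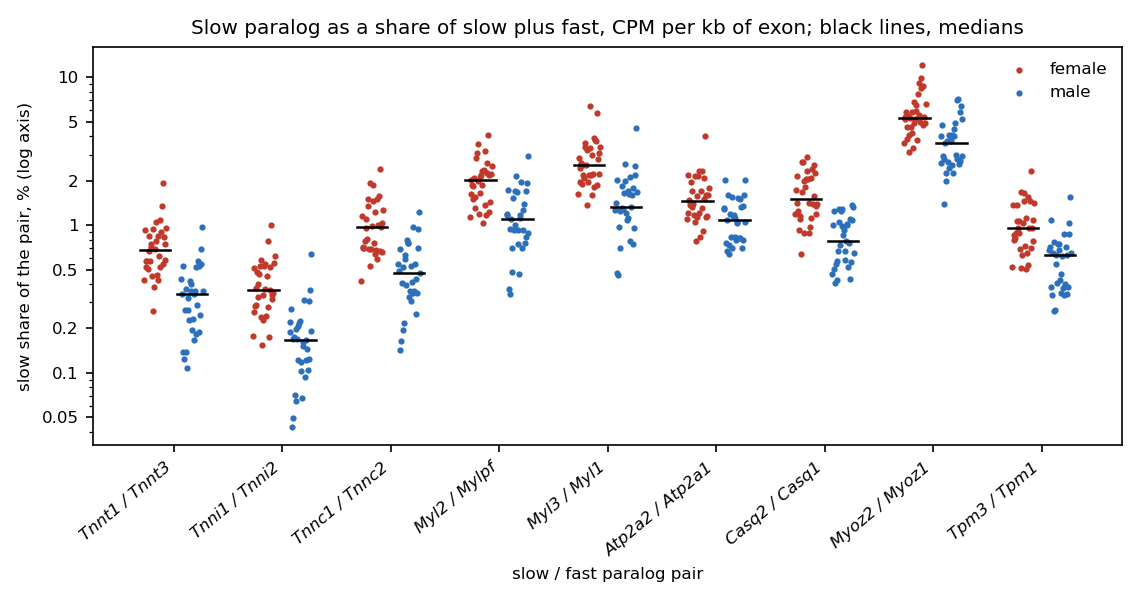
Share of the slow gene in each slow and fast pair (percent of summed CPM per kb, log axis) in the 63 libraries, females in red and males in blue, with a black line at each median. Female medians lie above male medians in all 9 pairs, from 0.365% against 0.167% for Tnni1 to 5.35% against 3.63% for Myoz2.

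A list named here other slow genes held Myh7, Myh7b, Myl6b, Ankrd2, Csrp3, Fhl1, Pln, Sln, Actn2, Myh2, Mb, Mybpc1, and Lmod2. It is not restricted to slow fibers, as Myh2 encodes the fast IIA myosin heavy chain and Actn2 is made in all fiber types. Of these 13 genes, 8 were lower and 1 was higher in males by edgeR. Myh7, the slow myosin heavy chain, had a median of 533 CPM in females and 264 CPM in males (log2 fold change -1.03, SE 0.19, adjusted p = 4.1e-05). Mybpc1, slow myosin-binding protein C, was lower by less (-0.29), and Myh7b, another slow-type myosin, fell by 0.70 on the log2 scale. The exception was Mb, the myoglobin gene (0.30), named after its value was seen. Of 9 other fast-fiber genes 3 were higher in males, namely Mylk4 (0.41), Tmem233 (0.18), and the calcium buffer Pvalb (0.17), whose call was lost without TMM scaling. Of 19 tested genes of the sarcoplasmic reticulum and calcium release, 6 were higher and 2 lower, led by Srl (0.26), Cacng1 (0.32), and Orai1 (0.25), a plasma membrane calcium channel. Of 25 regulators of fiber type, 4 were higher and 4 lower, led by the calcineurin subunit Ppp3ca (-0.34), Eya1 (0.44), and Tbx15 (0.27). The counts of these lists stand against 25.1% of all genes tested that passed in either direction and 11.8% that passed and were lower in males.

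Markers of other cells also differed between the sexes, and their part in the result was not tested. Over all genes tested, 25.1% passed between the sexes in either direction. Calls for Hbb-bs, Prx, Ryr2, and the smooth muscle markers were lost without TMM scaling, with no change of sign. All 5 adipose markers were lower in males, and their summed level was at 63.2, 192, and 391 CPM in females (lowest, median, and highest) and at 49.6, 104, and 299 CPM in males. Of 5 nerve markers 4 were lower in males (67.8, 102, and 260 against 49.95, 87.1, and 192 CPM), as were 2 of 5 tendon markers (147, 424, and 959 against 156, 357, and 664 CPM). Of 5 blood markers 3 were higher in males (73.4, 126, and 226 CPM in females, 80.9, 141, and 529 CPM in males), as were 3 of 5 smooth muscle markers (116, 145, and 227 against 126, 168, and 223 CPM). With edgeR 0 of 5 endothelial (130, 175, and 210 against 137, 178, and 231 CPM) and 0 of 3 tested immune markers (13.7, 22.3, and 53.6 against 13.3, 20.2, and 61.2 CPM) passed, and 0 of either had an unadjusted p under 0.05. Of 4 tested markers of regenerating muscle 2 were lower (11, 21.7, and 37.3 against 10.7, 16.9, and 45.2 CPM). Several of the 9 genes are also heart genes. Of the 4 heart markers too low to be tested, Nppa was at 0 in 62 of 63 libraries, Myl7 in 61, Mybpc3 in 54, and Tnni3 in 12. The median of Tnni3, cardiac troponin I, was 0.186 CPM in females and 0.0619 CPM in males. Of the 5 heart markers tested, Actc1 (-1.32), Myl4 (-0.52), and Ryr2 (-0.42) were lower in males, of which Actc1 and Myl4 are also made by skeletal muscle.

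Time of day was compared because the study asked how HIF1α shapes responses by time of day. Averaged over genotype and treatment, Casq2 was the 1 gene of 9 that passed, in a comparison where 8.02% of all genes passed in either direction and 3.92% were lower at ZT15. Of all genes called, 51.1% were higher at ZT15, and 18.3% with total counts and no TMM scaling, where Casq2 was still called. Casq2 was at 13.5, 32.2, and 67.5 CPM in the 31 libraries at ZT3 and at 12.0, 25.5, and 59.2 CPM in the 32 at ZT15. Its log2 fold change from ZT3 to ZT15 was -0.41 (SE 0.10, edgeR adjusted p = 0.00657). The 2 times overlapped over most of their range. Within females the median was 51.4 CPM at ZT3 and 31.8 CPM at ZT15, and within males it was 24.5 and 18.8 CPM. The other 8 genes had log2 fold changes from -0.23 to -0.03 with adjusted p from 0.551 to 0.954.

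The sign for Casq2 was negative in each of the 4 blocks of mouse numbers, with differences of mean log2 CPM of -0.59, -0.24, -0.63, and -0.25. The sign of the other 8 genes was not the same in each. In block 1 all 8 had a lower mean at ZT15 (-1.14 to -0.42), and in block 2 all 8 had a higher one (0.07 to 0.62). Within the single groups the edgeR count was 0 of 9 in each. For fl/fl sedentary mice (1.88% of all genes passed) the edgeR value of Casq2 was -0.65 on the log2 scale (SE 0.21, adjusted p = 0.115), and DESeq2 did call it there (adjusted p = 0.0812). For fl/fl exercised mice (1.18% of all genes), HIF1α KO sedentary mice (0.479%), and HIF1α KO exercised mice (0.663%) its log2 fold changes were -0.30, -0.50, and -0.21, and DESeq2 called none of the 9. Of the 9 genes, Casq2 had an unadjusted p under 0.05 in the sedentary groups of both genotypes, and 0 of the 9 had one in the exercised groups.

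With time, edgeR called 0 of the 9 fast partners and 0 of the 13 other slow genes, and 1 of each had an unadjusted p under 0.05. Over all genes 8.02% passed with time. The regulators had 8 of 25 called, 6 higher and 2 lower at ZT15, led by the myogenic factor Myod1 (log2 fold change 1.49, SE 0.13, adjusted p = 1.74e-13), the thyroid hormone receptor Thrb (-0.26), and Myog (0.67). Of the calcium-release genes 2 of 19 passed, Stac3 (-0.16) and Orai1 (0.18), and of the other fast genes 1 of 9, Tmem233 (-0.13). Without TMM scaling the calls of Orai1, Tbx15, and Vgll2 were lost. The regulators were then 4 higher and 4 lower, the calcium-release genes 0 higher and 4 lower, the other fast genes 0 higher and 2 lower, and the other slow genes 0 higher and 1 lower. The call of Tmem233 was lost with size factors by relative log expression. Of the listed markers of other cells, edgeR called 0 with time of day under TMM scaling, and 1 each of the smooth muscle, adipose, and immune markers had an unadjusted p under 0.05.

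**Figure D4:**
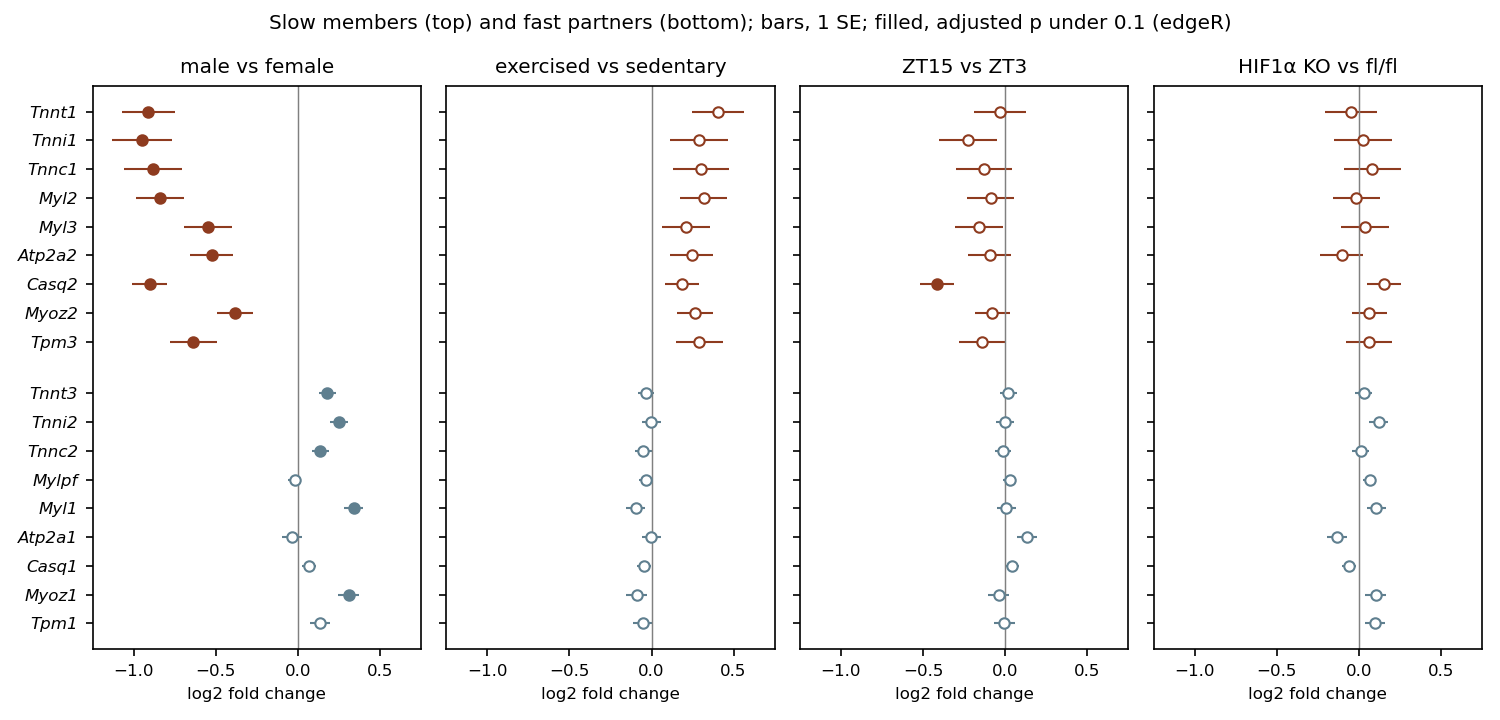
Log2 fold changes with bars of 1 SE on each side for the 9 slow genes (top) and their 9 fast partners (bottom), from males against females, exercised against sedentary, ZT15 against ZT3, and HIF1α KO against fl/fl mice, with filled symbols where the edgeR adjusted p was under 0.1. The 9 slow genes are filled and below 0 for sex, Casq2 is the 1 slow gene filled for time (-0.41), and no slow gene is filled for exercise, where all 9 lie above 0, or for genotype.

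Taken 3 h after exercise, the fold changes of the 9 genes lay between 0.19 and 0.41 on the log2 scale, and 0 of the 9 passed with edgeR. In this comparison 2.84% of all genes passed. DESeq2 called none of the 9 either. Unadjusted p values were under 0.05 for 4 of the 9, Tnnt1, Myl2, Myoz2, and Tpm3, and for 10.9% of all genes. Tnnt1 was at 27, 99.6, and 200.6 CPM in 32 sedentary and at 27.8, 116, and 418 CPM in 31 exercised mice, and its log2 fold change was the largest (0.41, SE 0.16, adjusted p = 0.249). Myoz2 was at 51.7, 95.9, and 176 CPM in sedentary and at 38.4, 123, and 227 CPM in exercised mice (0.27, SE 0.11, adjusted p = 0.282). The treatments overlapped in both genes, and the highest value of each was in the same exercised mouse (mouse 53). The others lay between 0.19 for Casq2 and 0.32 for Myl2. Over all genes, 48.3% had a fold change above 0. The 9 genes were correlated across mice, so counts over the 9 in this comparison and its parts are not independent.

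The direction varied between parts of the libraries. In blocks 1, 2, and 4 of mouse numbers all 9 genes had a higher mean in exercised mice (differences of 0.05 to 0.79 on the log2 scale). In block 3, 6 of the 9 had a lower one (-0.13 to 0.19). By group, edgeR called 0 of 9 in fl/fl mice at ZT3 (0.236% of all genes), fl/fl mice at ZT15 (0% of all genes), HIF1α KO mice at ZT3 (0.131%), and HIF1α KO mice at ZT15 (0.0591%), and DESeq2 called none of the 9 in any. Unadjusted p values were under 0.05 for 0, 0, 4, and 1 of the 9 in these groups, and for 13.8%, 9.23%, 5.07%, and 5.54% of all genes. Log2 fold changes of the 9 ran from -0.27 to 0.34 in fl/fl mice at ZT3, where 5 of 9 were above 0, and from -0.19 to 0.41 at ZT15, where 8 were. In HIF1α KO mice all 9 were above 0 at both times, from 0.18 to 0.68 at ZT3 and from 0.14 to 0.47 at ZT15. The highest value was Myl2 in HIF1α KO mice at ZT3, with a log2 fold change of 0.68 (SE 0.29, edgeR adjusted p = 0.856). In that group exercised mice ranged from 99.9 to 434 CPM and sedentary mice from 59.6 to 256 CPM.

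Of the fast partners edgeR called 0 of 9 after exercise, 0 had an unadjusted p under 0.05, and the log2 fold change of Myl1 (-0.10) was the farthest from 0. Over all genes 2.84% passed after exercise. Of the other slow genes 4 of 13 were called and all 4 were higher, among them the stretch-responsive genes Csrp3 (0.66, SE 0.15, adjusted p = 0.00478) and Ankrd2 (0.56, SE 0.12, adjusted p = 0.003), and Lmod2 (0.46). Of the regulators 3 were higher and 1 was lower, led by the coactivator Ppargc1a (1.22, SE 0.11, adjusted p = 5.05e-12), Rcan1 (0.43), and Esrrg (0.28). With edgeR 0 of 19 calcium-release genes (2 with an unadjusted p under 0.05) and 1 of 9 other fast genes, Mylk2 (-0.18), passed. Without TMM scaling the calls of Esrrg, Mylk2, Actn2, and Six4 were lost, which left 3 other slow genes and 2 regulators higher and 0 regulators lower.

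Genotype was the factor the study was built on. None of the 9 genes passed between HIF1α KO and fl/fl mice averaged over time and treatment with edgeR, against 8.26% of all genes (56.6% of these higher in HIF1α KO mice, and 34.03% of those called without TMM scaling), and none had an unadjusted p under 0.05. DESeq2 called 0 of the 9 as well. Log2 fold changes ran from -0.10 for Atp2a2 (SE 0.13) to 0.15 for Casq2 (SE 0.10), and adjusted p from 0.407 to 0.969. Casq2 was at 13.5, 28.9, and 67.5 CPM in fl/fl and at 12.0, 29.9, and 65.2 CPM in HIF1α KO mice. Atp2a2 was at 86.2, 181, and 334 CPM in fl/fl and at 81.6, 169, and 570 CPM in HIF1α KO mice. For Casq2 the genotypes overlapped over nearly the whole range. For Atp2a2 they overlapped up to 334 CPM, and the HIF1α KO range reached further, to 570 CPM. With single libraries left out the value of Atp2a2 ran from -0.19 (without mouse 53) to -0.06 (without mouse 60). Its sign did not turn. For Tnni1, Tnnc1, Myl2, Myl3, Tnnt1, and Tpm3 the sign of the genotype fold change did turn when single libraries were left out. For Tnni1, Myl2, and Myl3 it also turned with a changed covariate or without the shallow libraries.

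Within the 4 combinations, 0 of the 9 genes passed with edgeR or DESeq2 and 0 had an unadjusted p under 0.05. The shares of all genes called by edgeR were 0.4% in sedentary mice at ZT3, 0.0459% in sedentary mice at ZT15, 1.43% in exercised mice at ZT3, and 0.4% in exercised mice at ZT15. Log2 fold changes of the 9 ran from -0.53 to -0.06, -0.21 to 0.27, -0.13 to 0.35, and 0.01 to 0.34 in the same order. Myl2 in sedentary mice at ZT3 was farthest from 0, with 74.0, 203, and 370 CPM in fl/fl and 59.6, 129, and 256 CPM in HIF1α KO mice (log2 fold change -0.53, SE 0.28, edgeR adjusted p = 0.78). Its groups overlapped.

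Interactions of genotype with time or exercise were not detected for these genes. For time, edgeR called 0% of all genes and 0 of the 9 in sedentary mice, and 0% and 0 of the 9 in exercised mice. For exercise it called 0% and 0 of the 9 at ZT3, and 0% and 0 of the 9 at ZT15. None of the 9 had an unadjusted p under 0.05 in any of these tests, while 535, 2323, 702, and 1388 of all genes did. DESeq2 called 1, 24, 0, and 0 genes, none among the 9. The largest value was 0.79 on the log2 scale for Myl2 with exercise at ZT3 (SE 0.41, edgeR adjusted p = 0.855).

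For the other lists, the edgeR counts between genotypes were 0 of 9 fast partners, 0 of 13 other slow genes, and 0 of 25 regulators, of which 2, 0, and 3 had an unadjusted p under 0.05. They were 1 of 19 calcium-release genes (Cacng1, -0.14), and 1 of 9 other fast genes (Mylk2, -0.16). The calls of Cacng1 and Mylk2 were lost without TMM scaling. Over all genes 8.26% passed between genotypes. Nerve markers were lower in HIF1α KO mice for 4 of 5 (60.0, 108, and 260 CPM summed in fl/fl, 49.95, 89.4, and 228 CPM in HIF1α KO), 2 of 5 smooth muscle markers and 1 of 4 regeneration markers were lower, 1 of 5 tendon and 1 of 5 heart markers were higher (without TMM scaling 3 nerve, 0 smooth muscle, and 0 tendon markers were called), and their part in these values was not tested.

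The 9 genes varied more between mice than most genes did. After group and sex were taken out, their SD on the log2 scale was 0.42 (Casq2) to 0.72 (Tnni1), against a median of 0.33 over all genes tested. Sex by itself took 17.2% (Myoz2) to 48.8% (Casq2) of the variance in log2 CPM, the 8 groups took 6.07% (Tnnc1) to 17.5% (Casq2), and the 4 blocks of mouse numbers took 5.55% (Tpm3) to 28.6% (Atp2a2). The shares were not adjusted for the number of levels, and a factor with more levels takes more variance even with no effect. Those of the 8 groups and 4 blocks therefore cannot be set directly against that of sex. Single mice stood at the same end for many of the genes. Mouse 53, an exercised HIF1α KO female at ZT3, had the highest Tnnt1 (418 CPM), Tnni1 (147 CPM), Tnnc1 (234 CPM), Myl2 (434 CPM), Myl3 (310 CPM), Atp2a2 (570 CPM), Myoz2 (227 CPM), and Tpm3 (348 CPM) of all libraries, and a Casq2 value of 65.2 CPM.

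The levels of the 9 genes were correlated across the 63 libraries. Over the 36 pairs, Pearson's r of log2 CPM ran from 0.47 to 0.97 with a median of 0.81, and Spearman's rho from 0.46 to 0.97 with a median of 0.80. Every pair had an adjusted two-sided permutation p of at most 0.00011 for r and for rho, with 100000 permutations and adjustment over the 36 pairs. Tnni1 and Tnnc1, which sit on the same thin filament, were the closest pair (r = 0.97). Atp2a2 and Casq2, both of the calcium store, were the least alike (r = 0.47). Without the 2 libraries farthest from the median of the first gene, r ran from 0.42 to 0.97. The libraries share groups and sexes, so r was also taken on residuals after group and sex, where it ran from 0.28 to 0.97 with a median of 0.78.

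Within parts of the libraries most pairs still held. The median r was 0.75 within the 32 females, where 33 of 36 pairs had an adjusted permutation p under 0.05, and 0.80 within the 31 males, where 35 did. Within the 4 blocks of mouse numbers the median r was 0.90, 0.81, 0.85, and 0.92, with 36, 34, 36, and 36 pairs under 0.05. Each pair that failed involved Atp2a2, namely Atp2a2 with Casq2 (r = 0.20 in females, 0.33 in males, and 0.27 in block 2), with Myoz2 (0.29 in females and 0.41 in block 2), and with Myl2 (0.33 in females). Atp2a2 had the lowest median r with the other 8 (0.61) and Tnnc1 the highest (0.92).

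**Figure D5:**
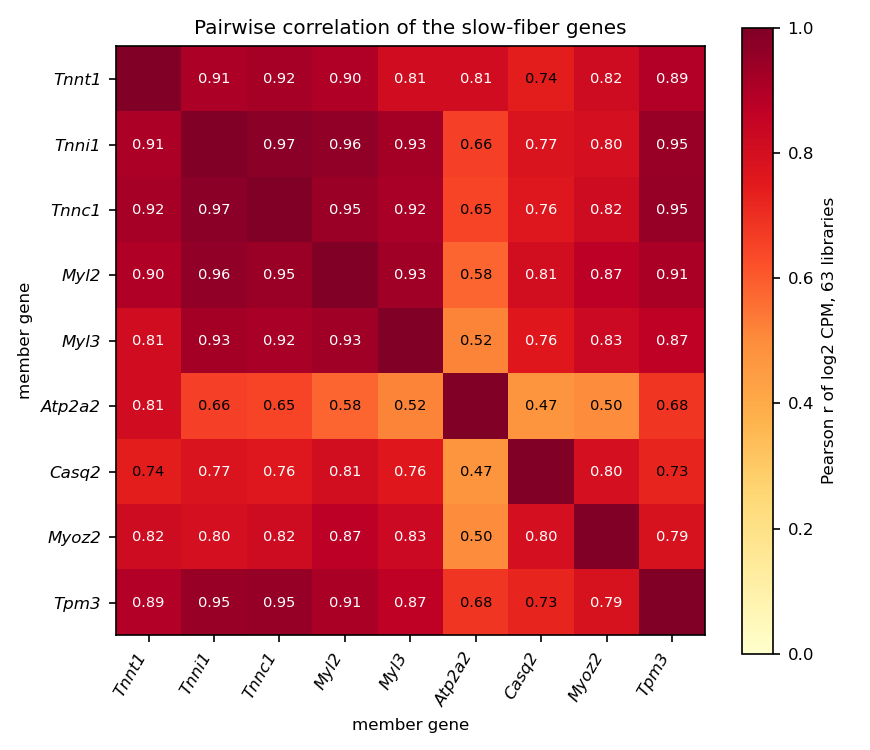
Pearson's r of log2 CPM over the 63 libraries for each pair of the 9 genes, as a colored grid with the value in each cell. Values run from 0.47 (Atp2a2 with Casq2) to 0.97 (Tnni1 with Tnnc1), and the row of Atp2a2 holds the lowest ones.

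Likeness to the 9 genes was also measured for every other gene tested, as Pearson's r over 63 libraries with the mean of the 9 after each was scaled to unit variance, and is given as a description. The 12 genes outside the set with the highest r were Idh2 (0.82), a mitochondrial isocitrate dehydrogenase, Myh7 (0.81), Ldhb (0.75), the heart-type lactate dehydrogenase subunit, Fhl1 (0.74), Frem2 (0.74), Homer2 (0.74), Npr3 (0.72), Rp1 (0.70), Abhd18 (0.68), Angpt1 (0.64), Selenbp1 (0.64), and AC157910.6 (0.64). Atp2a2, a member of the set and part of that mean, had an r of 0.72 and stood at rank 16 of all genes tested. The fast partners ranged from -0.14 (Mylpf) to -0.48 (Casq1).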

How the data were processed

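RNA from gastrocnemius of 64 mice was sequenced as strand-specific libraries, each from a separate mouse. The authors aligned the reads with STAR to mm10 and counted them per gene with featureCounts, per the labels and the study's methods. Versions and the strand setting of the counting are not given in the sources used here. The deposited values are raw read counts per gene, not normalized. Mouse 44 (382 counts) was left out, and the other 63 libraries held 2359780 to 40377963 counts, so the precision of low genes differs between libraries.

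Genes were kept by edgeR's expression filter at a minimum count of 10 (15241 of 55401). The edgeR 4.0.16 quasi-likelihood test (R 4.3.3, limma 3.58.1) was fitted over all 63 libraries with group and sex as terms, TMM scaling, and robust dispersion. Log2 CPM used a prior count of 2. Averaged comparisons weight the 4 combinations of the other factors equally. P values were adjusted by Benjamini-Hochberg within each comparison, with a threshold of 0.1. The study used DESeq2, which served here as an alternative (1.42.0). The fits were tested on simulated data.

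GENCODE M21 matched 55141 gene identifiers by their Ensembl identifier without the version. Promoters came from RefSeq on GRCm38.p6. Correlations used 100000 permutations, with a smallest p of 1e-05. The 9 genes, their 9 fast partners, Myh7, and Hif1a were tested in each comparison. Single values are given for part of them, and ranges, counts, or no values for the rest. Of each further list (other slow genes, other fast genes, sarcoplasmic reticulum and calcium release, regulators, and markers of skeletal muscle and of adipose, nerve, tendon, blood, smooth muscle, endothelial, immune, heart, and regenerating cells) up to 3 called genes with the smallest p were to be named. Exceptions are stated where they occur. Strit1, on the calcium list, was not matched. The 9 genes and the lists were chosen with earlier results of these data known. Comparisons of sex within conditions and of factors within blocks of mouse numbers were added after the data were seen. Alternatives covered scaling, filters, sex and block terms, mitochondrial rRNA share, shallow libraries, mouse 44, groups fitted alone, DESeq2, a stricter threshold, and each library left out in turn.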

Additional observations from a re-analysis of the deposited data

Results flagged for a closer look

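Within each of the 8 groups, the highest and the lowest library of each of the 9 genes were compared with the nearest other library by Dixon's criterion, which sets the gap against the range of the group. Of 72 such tests 2 passed, where chance gives about 3.6, or about 1 in 20. Both concerned Atp2a2, the gene of the SERCA2 pump, in exercised mice at ZT15. In HIF1α KO mice the lowest library (mouse 24, a male) was at 93.4 CPM and the next at 169 CPM. In fl/fl mice the highest library (mouse 52, a female) was at 334 CPM and the next at 181 CPM. What sets these libraries apart was not tested.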

How the results depend on the processing

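All 9 genes were lower in males under each of the 10 alternatives and with each library left out in turn. Casq2 was called between times under all 11 alternatives (log2 fold change -0.50 to -0.38, adjusted p 0.00216 to 0.0791 over edgeR and DESeq2) and without any single library (-0.45 to -0.38). Of the 9 genes, 0 were called for exercise or for genotype under any of 11 alternatives each.

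In sedentary fl/fl mice 1 gene, Casq2, was called between times without TMM scaling (-0.85, edgeR adjusted p = 0.0558), with at least 10 counts in every library (edgeR adjusted p = 0.0968), with blocks of 16 successive mouse numbers as a term (edgeR adjusted p = 0.0438), and with DESeq2 (adjusted p = 0.0812). With single libraries left out the count was 0 to 1, and it was 1 without mouse 25, 40, 41, or 54. The cause was not tested.

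For genotype, the sign of Tnni1 turned without a sex term (-0.013), with the block term (-0.0058), and with mitochondrial rRNA share (-0.030). That of Myl2 turned without libraries under 5000000 counts (0.028), and that of Myl3 with mitochondrial rRNA share (-0.021). With single libraries left out the genotype values were -0.14 to 0.0028 for Tnnt1, -0.053 to 0.091 for Tnni1, -0.012 to 0.12 for Tnnc1, -0.078 to 0.021 for Myl2, -0.019 to 0.087 for Myl3, -0.0014 to 0.095 for Tpm3, and, with no change of sign, -0.19 to -0.061 for Atp2a2. The time value of Tnnt1 was -0.092 to 0.052. The causes were not tested. With CPM in place of CPM per kilobase the median slow share was 0.578% for Tnni1, 2.78% for Myl2, 2.23% for Atp2a2, and 8.03% for Myoz2, as gene lengths no longer enter.

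Over all genes, edgeR called 1259 between genotypes, 429 without TMM scaling, and 778 without the filter. It called 1222 between times and 2030 with the block term. For exercise it called 433, 253 without TMM scaling, and 669 with the block term. Without TMM scaling the median of all genes shifted by up to -0.28 (genotype by time in exercised mice). No paired analysis was possible because each mouse number belongs to 1 mouse and no number is shared between groups.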
